A study of Mus musculus with 14 samples.

Results

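The comparison of CT26 cells with healthy small intestine used 6 of the 14 arrays of the series, 3 for each group, and the samples were chosen by their labels alone. CT26 is a BALB/c mouse colon carcinoma line, obtained from a cell bank and grown in culture, and all 3 CT26 arrays measured this 1 line. The small intestine samples were labelled as whole tissue of C57BL/6J mice, where the study's own text speaks of mucosa, and were listed by the study under different animals and described as adult wild type mice. The study describes replicates of tissues and cell lines as biological for its methylation assay, but the sources used here do not say whether the CT26 arrays came from separate cultures, so that p-values measure only the spread between these samples, which may be technical. Strain, growth in culture, origin from the large rather than the small bowel, malignancy and the mixture of cell types in a tissue all differed between the groups and cannot be told apart.

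The small intestine is lined by a single epithelium that renews itself from stem cells at the base of the crypts. Its absorptive cells, the enterocytes, carry digestive enzymes and transporters on a brush border of microvilli, while goblet cells secrete mucus, Paneth cells secrete antimicrobial peptides and enteroendocrine cells release hormones. Muscle, vessels, nerves and immune cells lie beneath it, and a cultured carcinoma line has none of these companions.

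Expression was measured on one-color Agilent arrays, and each value given below is the log2 of the background-subtracted signal minus the 75th percentile of its array. A value of 0 is therefore the 75th percentile of that array, and a difference of 1 between arrays is a doubling. The brightest probe stood for its gene, and values of different genes cannot be set against each other. limma was run on probes that exceeded background, by the flag of the scanner software, on all arrays of one group or the other. A gene was called overexpressed or underexpressed in CT26 where its log2 fold change reached 1.2 in either direction with an adjusted p no higher than 0.01. Where the dimmer group was not well above background on all of its arrays, the fold is given as a lower limit, written as at least N-fold.

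On each of the 6 arrays a share of 49.2% to 56% of the gene probes exceeded background by that flag. Of 15973 genes tested, 4461 were overexpressed in CT26 (27.9%) and 4064 were underexpressed (25.4%), so that 53.4% of genes were called in one direction or the other and 52.33% of the calls were overexpressed. When each array was centred on the probes well above background on all 6 arrays, only 38.71% of the calls were overexpressed. The median log2 fold change over all genes tested was 0.19. The lists below may be read against this median and against the shares of 27.9% and 25.4%. Medians of lists include readings below background as they stand and not as limits. Of the called genes, 5450 were measured in both groups and 3075 have only a limit. Below background on every CT26 array were 1719 of the underexpressed genes, and on every small intestine array 464 of the overexpressed genes. Such genes passed the filter only through the group where they were high. Arrays of CT26 correlated with one another at 0.973 to 0.99 and those of small intestine at 0.973 to 0.984, while the correlation between the groups was 0.621 to 0.665.

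Single arrays stood apart for some genes. On small intestine replicate 1, 60 of 26322 probes lay over 4-fold above both other small intestine arrays and 169 lay over 4-fold below both. *Fabp6*, the ileal bile acid-binding protein, read 9.93, 1.60 and -1.75 in the 3 small intestine replicates, and *Slc10a2*, the ileal bile acid transporter, read 5.54, -1.94 and -2.11, both highest on replicate 1. Both were called underexpressed in CT26, calls that were lost without any 1 of the CT26 replicates (adjusted p from 0.0182 to 0.0292 and from 0.0156 to 0.019). They were also lost in the authors' table (log2 fold changes -6.37 and -4.13, adjusted p = 0.0521 and 0.0643), after normexp background correction and with a floor on low signals, and that of *Fabp6* with the slide as a block (adjusted p = 0.0117), under quantile normalization and in the fit of all 14 arrays. Genes known for the upper small intestine went the other way, with *Lct* (lactase) at 5.90, 9.38 and 9.39, *Fabp1* (the liver-type fatty acid-binding protein) at 5.43, 9.24 and 9.56 and *Slc2a2* (the glucose transporter GLUT2) at 0.03, 4.15 and 4.81, all lowest on replicate 1. The same array was the only one with the Y-linked gene *Eif2s3y* well above background, at 2.61, while *Xist*, the X-inactivation transcript, was well above background on the other 2 small intestine arrays and on no CT26 array. The labels do not give the stretch of bowel or the sex of the animals, and their part in the results was not tested. Among CT26 arrays, replicate 1 stood apart, with 167 of 26003 probes over 4-fold above and 195 over 4-fold below both others. Without small intestine replicate 1 the counts were 4271 overexpressed and 4056 underexpressed genes, and without CT26 replicate 1 they were 4384 and 4050.

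Promoters of genes that the results below turn on are shown first, each over the 250 bases before and the 50 bases after a start site of transcription, from RefSeq on GRCm38.p6. Letters in capitals mark matches to a motif on either strand, searched as exact letters with N for any base. Where a gene has several start sites the window with the most matches is shown, and a gene was counted as holding a motif if any of its windows did. The first pair belongs to interferon-induced genes and marks the interferon-stimulated response element, searched as GAAA, any 2 bases and again GAAA. Matches of this motif may overlap one another.
*Isg15*, chr4:156200769-156201068, strand -: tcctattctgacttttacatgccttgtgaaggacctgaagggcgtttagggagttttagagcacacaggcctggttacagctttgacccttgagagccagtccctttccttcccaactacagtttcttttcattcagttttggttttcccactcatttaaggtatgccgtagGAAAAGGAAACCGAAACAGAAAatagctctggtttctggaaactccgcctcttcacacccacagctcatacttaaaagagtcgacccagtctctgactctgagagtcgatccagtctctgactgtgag
*Ifit1*, chr19:34640639-34640938, strand +: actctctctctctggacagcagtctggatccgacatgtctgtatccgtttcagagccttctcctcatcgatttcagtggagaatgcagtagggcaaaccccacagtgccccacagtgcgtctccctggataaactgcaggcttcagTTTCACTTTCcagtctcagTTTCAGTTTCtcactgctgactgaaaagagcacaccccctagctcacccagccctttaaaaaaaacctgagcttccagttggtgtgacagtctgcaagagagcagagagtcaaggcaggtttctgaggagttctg

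The element was found in the promoters of 9 of the 14 listed interferon genes that had an entry (64.3%), and in 3.99% of the 27025 genes with a promoter in the table. The next pair belongs to genes of mitosis, *Plk1* and *Cdc20*, and marks the CCAAT box and the cell cycle genes homology region, TTTGAA. The CCAAT box was found in 14 of 16 listed mitotic genes (87.5%) and in 41.1% of all genes, and TTTGAA in 11 of 16 (68.8%) and in 20.2% of all genes.
*Plk1*, chr7:122159185-122159484, strand +: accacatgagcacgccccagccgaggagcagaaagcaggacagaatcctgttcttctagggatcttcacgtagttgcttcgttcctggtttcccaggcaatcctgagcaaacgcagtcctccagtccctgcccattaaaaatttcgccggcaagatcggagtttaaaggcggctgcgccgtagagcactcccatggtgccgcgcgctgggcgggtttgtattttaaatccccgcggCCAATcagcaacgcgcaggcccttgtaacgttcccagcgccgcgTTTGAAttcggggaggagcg
*Cdc20*, chr4:118437294-118437593, strand -: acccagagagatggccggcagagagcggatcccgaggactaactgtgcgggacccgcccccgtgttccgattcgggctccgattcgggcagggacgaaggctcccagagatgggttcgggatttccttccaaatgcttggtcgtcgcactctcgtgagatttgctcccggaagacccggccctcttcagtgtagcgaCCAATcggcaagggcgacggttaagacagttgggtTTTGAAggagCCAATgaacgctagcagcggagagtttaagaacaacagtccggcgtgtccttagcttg

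*Mcm5*, a subunit of the replicative helicase, is shown with the E2F site TTTGGCGC, which was found in 5 of 17 listed genes of DNA replication (29.4%) and in 0.585% of all genes. *Plaur*, the urokinase receptor, is shown with the AP-1 site TGANTCA, found in 5 of 11 listed matrix protease genes (45.5%) and in 8.97% of all genes.
*Mcm5*, chr8:75109259-75109558, strand +: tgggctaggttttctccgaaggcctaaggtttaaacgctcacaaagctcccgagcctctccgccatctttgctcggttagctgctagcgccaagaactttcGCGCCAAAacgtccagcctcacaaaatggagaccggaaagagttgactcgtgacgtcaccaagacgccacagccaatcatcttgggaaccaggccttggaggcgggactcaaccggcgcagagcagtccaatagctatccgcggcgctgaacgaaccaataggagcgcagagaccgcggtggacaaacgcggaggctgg
*Plaur*, chr7:24462233-24462532, strand +: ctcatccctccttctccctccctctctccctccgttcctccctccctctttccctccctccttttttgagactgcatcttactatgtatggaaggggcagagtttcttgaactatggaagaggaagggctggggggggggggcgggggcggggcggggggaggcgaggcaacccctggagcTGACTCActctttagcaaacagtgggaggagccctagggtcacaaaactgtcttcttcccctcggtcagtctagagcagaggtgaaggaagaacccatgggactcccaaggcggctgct

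The last pair belongs to genes of the enterocyte and marks the HNF4 site CAAAGTNCA, found in 3 of 21 listed genes (14.3%) and in 1.64% of all genes. These matches are descriptions of the letters in the window and say nothing about binding.
*Apoa4*, chr9:46240594-46240893, strand +: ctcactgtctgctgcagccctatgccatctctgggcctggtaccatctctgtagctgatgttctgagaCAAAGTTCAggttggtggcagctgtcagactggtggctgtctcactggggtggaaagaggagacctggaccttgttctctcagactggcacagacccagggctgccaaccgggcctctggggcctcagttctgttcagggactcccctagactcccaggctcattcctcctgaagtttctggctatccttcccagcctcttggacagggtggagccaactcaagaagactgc
*Fabp2*, chr3:122894822-122895121, strand +: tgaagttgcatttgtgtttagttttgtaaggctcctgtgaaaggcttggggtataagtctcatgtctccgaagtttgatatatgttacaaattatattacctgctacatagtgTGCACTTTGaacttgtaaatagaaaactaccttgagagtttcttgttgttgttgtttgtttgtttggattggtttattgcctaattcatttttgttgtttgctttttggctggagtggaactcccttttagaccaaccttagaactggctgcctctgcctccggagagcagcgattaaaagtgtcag

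Genes of the epithelium were far lower in CT26 than in small intestine. All 22 listed genes of epithelial junctions and identity were tested and all were underexpressed in CT26, against 25.4% of all genes, with a median log2 fold change of -10.83, and 12 of them were below background on every CT26 array and so could pass the filter only through the small intestine. *Epcam*, an adhesion molecule found on nearly all epithelial cells, read 6.35, 6.46 and 6.74 in small intestine and -6.61, -6.49 and -6.21 in CT26, where it was below background throughout. It was at least 2897-fold lower in CT26 (adjusted p = 1.12e-08). *Cdh1*, which encodes E-cadherin, read 5.30, 4.94 and 5.32 against -6.57, -7.09 and -7.28, at least 1154-fold lower (adjusted p = 1.86e-08). The tight junction gene *Cldn3* and the keratin *Krt19* were also below background on all CT26 arrays, at least 3385-fold and 7091-fold lower. The groups did not overlap for these 4 genes, as for 35% of all genes tested with CT26 below. The study describes CT26 as a carcinoma line, and these 4 epithelial markers were not detected in it, while *Krt18*, *Krt20*, *Cldn7* and *Cdx2* exceeded background on every CT26 array.

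Keratins did not all share this pattern. *Krt8* and *Krt18* encode the partner keratins that pair into the filaments of simple epithelia. *Krt18* read 7.90, 7.28 and 7.74 in small intestine and 5.76, 4.92 and 5.04 in CT26, a difference of only 5.28-fold (log2 fold change -2.40 ± 0.32, SE, adjusted p = 0.000229). *Krt8* read 9.32, 9.35 and 9.67 against -5.32, -3.79 and -4.11, well above background on 2 of 3 CT26 arrays and at least 12514-fold lower. *Krt20*, a keratin of differentiated intestinal cells, stayed measurable in CT26 at 0.72, 2.71 and 1.64 against 9.09, 9.53 and 9.90 in small intestine (225-fold lower, adjusted p = 2.8e-06). Of 15 listed keratins 11 were tested, 8 of these were underexpressed (72.7%, against 25.4% of all genes) and 0 were overexpressed. Some junction genes also kept a signal over background in CT26, among them *Cldn7* at -2.70, -2.76 and -2.87 and the intestinal lectin *Lgals4* at -1.04, -1.49 and -1.98, although both were far lower there (2446-fold and 2097-fold).

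**Figure D1:**
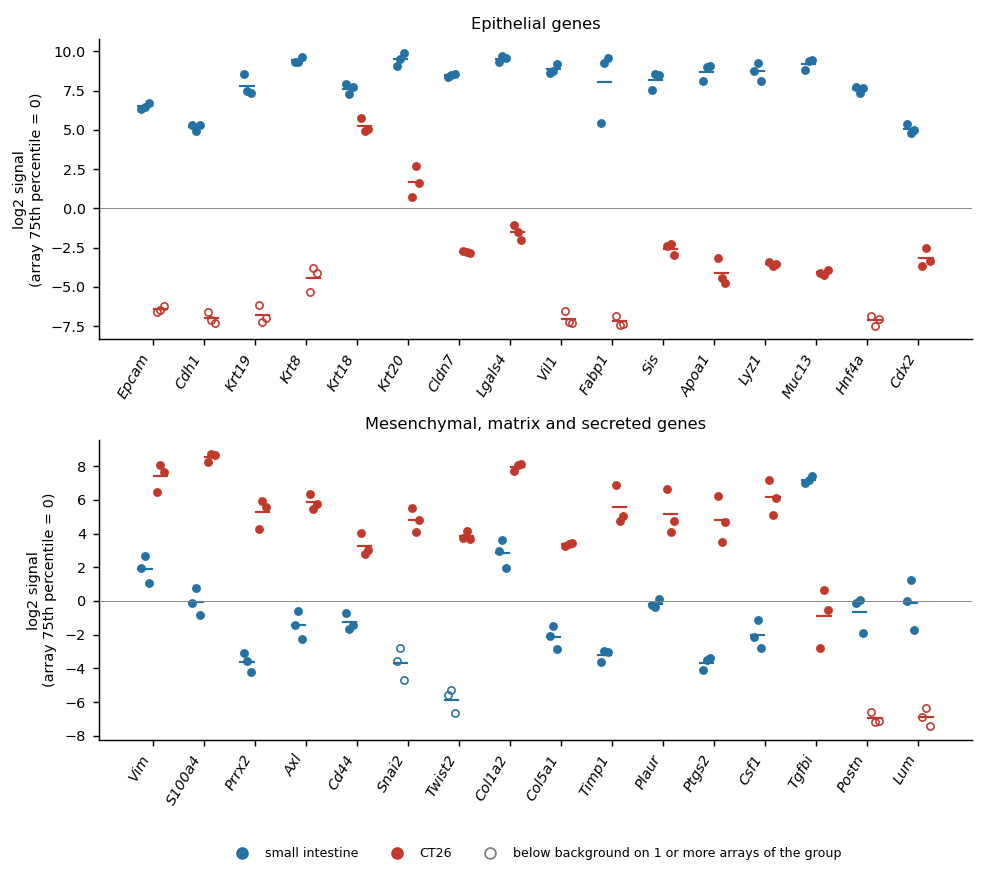
Log2 signal of single genes on each array, with the 75th percentile of the array set to 0. Points are arrays in the order of the replicates, bars are group means and open points are groups in which at least 1 array was not well above background. The upper panel shows epithelial genes, all lower in CT26, and the lower panel shows mesenchymal, matrix and secreted genes, of which *Tgfbi*, *Postn* and *Lum* were lower in CT26 and the others higher.

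The absorptive program of the enterocyte was lower in CT26. All 24 listed genes of uptake and lipid handling, all 15 tested of 16 brush border enzymes and all 12 genes of brush border structure were underexpressed, with medians of -10.89, -11.16 and -10.59. Of these, 13, 7 and 3 were below background on every CT26 array. *Vil1*, the actin-bundling protein villin of microvilli, read 8.61, 8.79 and 9.17 in small intestine and -6.53, -7.26 and -7.30 in CT26, at least 14679-fold lower (adjusted p = 1.12e-08). *Sis*, which encodes sucrase-isomaltase, was measured on all 6 arrays, at 7.54, 8.54 and 8.52 against -2.41, -2.27 and -2.99, and was 1733-fold lower (adjusted p = 7.18e-08). *Apoa1*, the apolipoprotein of high-density lipoprotein, was lower by 7282-fold, with readings of 8.09, 8.98 and 9.10 against -3.16, -4.41 and -4.75.

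The fatty acid-binding proteins carry lipid within cells, and of 7 listed 6 were tested and all 6 were underexpressed. *Fabp2*, the intestinal form whose promoter is shown above, exceeded background on 2 of 3 CT26 arrays and was at least 20419-fold lower, and *Fabp5*, known from skin and other epithelia, was at least 131-fold lower. *Apoa4*, an apolipoprotein of the chylomicron, read 5.0, 8.74 and 9.42 against -5.74, -7.07 and -7.12, lowest of the small intestine on replicate 1, and was at least 6669-fold lower. The differences varied widely within these lists. *Ezr*, the membrane-cytoskeleton linker ezrin, was 5.08-fold lower, *Dgat1*, which makes triglyceride, 28.4-fold and *Mttp*, which loads lipid onto apolipoprotein B, 75.3-fold, each measured on all 6 arrays. *Anpep*, an aminopeptidase of the brush border, read -0.87, 1.46 and 1.21 in CT26 and 9.20, 9.27 and 9.30 in small intestine. The brush border peptidase *Dpp4* was at least 1393-fold lower and was below background on every CT26 array. Among the genes measured on all 6 arrays, the largest falls included those of *Muc13* (a membrane mucin), *Lgals2* (a galectin), *Crip1* (the cysteine-rich intestinal protein), *Cyp2d26* (a cytochrome P450), *Guca2a* (guanylin) and *Atp9a* (a phospholipid flippase), from -13.31 to -12.22 on the log2 scale.

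Genes of the secretory lineages were lower in CT26. All 8 Paneth cell genes found on the array out of 12 listed, all 10 goblet cell genes and all 14 enteroendocrine genes were underexpressed (medians -13.86, -13.62 and -9.29). Of these, 5, 6 and 9 were below background on every CT26 array, so that the medians rest largely on such readings. *Lyz1*, the lysozyme of Paneth cells, was measured on all 6 arrays and read 8.77, 9.29 and 8.15 against -3.44, -3.67 and -3.57 (5025-fold lower). *Itln1*, a lectin of Paneth and goblet cells, and *Zg16*, a lectin of the mucus, were at least 22073-fold and 34635-fold lower. The alpha-defensin *Defa3* had the largest limit of any gene, at least 38733-fold lower, but the alpha-defensins are close copies of one another and their probes may share targets. *Muc2*, the main gel-forming mucin, was at least 2319-fold lower, and the hormone genes *Chga*, *Chgb* and *Nts* were below background on every CT26 array.

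Tuft cells, the chemosensory cells of the epithelium, gave a divided picture. Of 7 tested among 10 listed genes, 4 were underexpressed (57.1%, against 25.4% of all genes) and 1 was overexpressed (14.3%, against 27.9%). Below background on every CT26 array were 3 of the 7. *Trpm5*, the cation channel of taste transduction, was at least 58.5-fold lower. *Ptgs1*, which encodes the prostaglandin synthase COX-1 and is also used outside tuft cells, was higher in CT26, at 5.13, 5.87 and 5.93 against 1.32, 1.84 and 1.96 (15.3-fold, adjusted p = 1.3e-05).

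**Figure D2:**
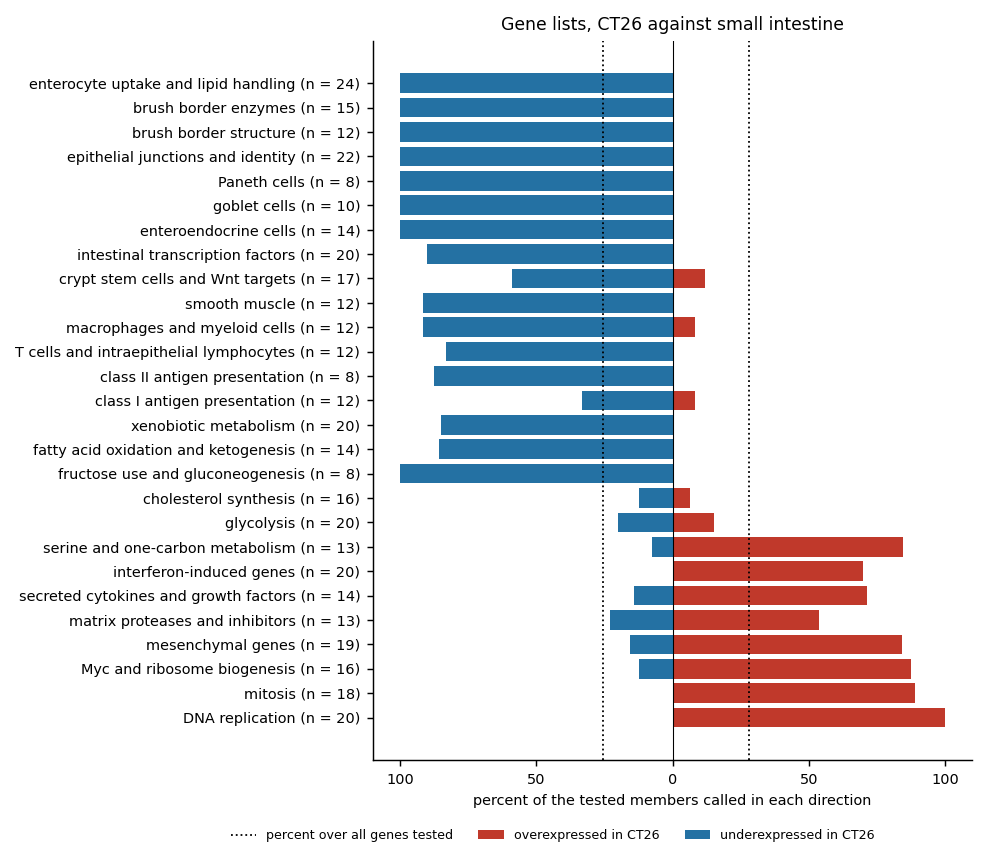
Percent of the tested members of 27 gene lists that were overexpressed (to the right) or underexpressed (to the left) in CT26 against small intestine, with the number tested beside each name. The dotted lines mark 27.9% overexpressed and 25.4% underexpressed over all genes tested, and lists of the epithelium lie to the left while DNA replication, mitosis and ribosome biogenesis lie to the right.

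Most transcription factors that keep intestinal identity were lower as well. Of 21 listed, 20 were tested, 18 were underexpressed, against 25.4% of all genes, and 0 were overexpressed, with a median of -7.78. Below background on every CT26 array were 12 of the 20, which passed the filter only through the small intestine. *Hnf4a*, a nuclear receptor that drives enterocyte genes, read 7.72, 7.36 and 7.66 in small intestine and -6.87, -7.46 and -7.03 in CT26 and was at least 6059-fold lower (adjusted p = 1.04e-08). Its relative *Hnf4g* was at least 317-fold lower. *Cdx2*, the homeobox gene of the hindgut, kept a signal above background on all CT26 arrays, at -3.69, -2.50 and -3.36 against 5.35, 4.81 and 5.0 (302-fold lower, adjusted p = 2.96e-07). *Atoh1*, which commits cells to the secretory lineages, was at least 111-fold lower.

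Genes of crypt stem cells, many of them targets of Wnt signalling, split. Of 17 tested, 10 were underexpressed (58.8%, against 25.4% of all genes), 2 overexpressed (11.8%, against 27.9%) and 5 not called. Below background on every CT26 array were 7 of the 17, which passed the filter only through the small intestine. *Lgr5*, the receptor that marks cycling crypt stem cells, read 0.24, -0.57 and -1.11 in small intestine and was below background on every CT26 array, at least 22.7-fold lower. Feedback genes of the Wnt pathway behaved in the same way, with *Axin2* at least 20.1-fold, *Rnf43* at least 169-fold and *Nkd1* at least 33.1-fold lower. *Lrig1*, a brake on growth factor receptors, was higher in CT26, at 3.86, 3.76 and 3.72 against 2.12, 1.61 and 0.99 (4.61-fold, adjusted p = 0.000403). *Sox9* and *Ephb2*, a transcription factor and a receptor of the crypt, were not called, with log2 fold changes of -0.63 ± 0.31 and -0.25 ± 0.25 (SE). The study had singled out 10 stem cell signature genes with more promoter methylation and lower expression in differentiated cells than in intestinal stem cells. That comparison did not include CT26. Of these 10 genes 6 were overexpressed (60%) and 3 underexpressed (30%) in CT26 against small intestine. Over all genes tested the shares were 27.9% and 25.4%, so that the underexpressed share lies near that of all genes. *Slit2* of this list, which encodes a guidance ligand, was 102-fold higher in CT26.

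Mesenchymal genes, which are low in epithelia, were mostly higher in CT26. Of 20 listed, 19 were tested and 16 were overexpressed, against 27.9% of all genes, while 3 were underexpressed (median 4.55). *Vim*, the intermediate filament of mesenchymal cells, read 1.97, 2.64 and 1.07 in small intestine and 6.45, 8.08 and 7.68 in CT26 (45.7-fold higher, adjusted p = 3.19e-05). *S100a4*, a calcium-binding protein of motile cells, read -0.12, 0.78 and -0.81 against 8.25, 8.73 and 8.65 (387-fold), and the homeobox gene *Prrx2* read -3.08, -3.55 and -4.20 against 4.27, 5.92 and 5.56 (465-fold). The groups did not overlap for any of these 3 genes, as was the case for 41.7% of all genes tested with CT26 above. The repressors of E-cadherin *Snai2* and *Twist2* were at least 329.7-fold and 328-fold higher, where *Snai2* exceeded background on 2 of 3 small intestine arrays and *Twist2* on none. *Axl*, a receptor tyrosine kinase, was 154-fold higher and *Cd44*, a hyaluronan receptor, 23.4-fold. Of the 3 tested probes of *Cd44* only 1 was called. *Tgfbi*, a matrix protein induced by TGF-beta, ran against the list, at -2.81, 0.62 and -0.54 in CT26 and 6.99, 7.17 and 7.43 in small intestine (276-fold lower, adjusted p = 2.8e-05), and *Postn*, the stromal matrix protein periostin, was below background in CT26 and at least 20-fold lower.

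Matrix genes were called in both directions, with a share underexpressed near that of all genes. Of 16 listed collagens and proteoglycans 14 were tested, of which 6 were overexpressed (42.9%), 4 underexpressed (28.6%) and 4 not called, with a median of -0.80. Over all genes tested the shares were 27.9% and 25.4%. Without CT26 replicate 1 only 2 were underexpressed. *Col1a2*, a chain of type I collagen, was 34.6-fold higher in CT26 and *Col5a1*, a chain of type V collagen, 45.3-fold, whereas the fibroblast proteoglycan *Lum* (lumican) was at least 28.6-fold lower and below background on every CT26 array. Of 18 listed proteases and inhibitors 13 were tested, 7 were overexpressed (53.8%) and 3 underexpressed (23.1%). *Timp1*, an inhibitor of metalloproteinases, read -3.62, -2.94 and -3.06 in small intestine and 6.90, 4.75 and 5.05 in CT26 (438-fold higher, adjusted p = 2.58e-06). *Timp3*, a matrix-bound inhibitor of the same family, was at least 50.5-fold lower and well above background on 1 of 3 CT26 arrays. *Plaur*, whose promoter with its AP-1 match is shown above, read -0.26, -0.38 and 0.11 against 6.66, 4.10 and 4.77, highest on CT26 replicate 1 (40.9-fold higher).

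Secreted factors were mostly higher in CT26. Of 20 listed cytokines and growth factors 14 were tested, 10 were overexpressed (71.4%) and 2 were underexpressed (14.3%). Over all genes tested the shares were 27.9% and 25.4%. Without small intestine replicate 2 or 3, or without CT26 replicate 2 or 3, 1 gene was underexpressed. *Csf1*, the growth factor of macrophages, read -2.12, -1.11 and -2.78 in small intestine and 7.19, 5.13 and 6.10 in CT26 (283-fold higher, adjusted p = 6.27e-06). *Inhba*, a subunit of activin, was 179-fold higher and the chemokine *Cxcl10* 60.9-fold. *Cxcl1*, a chemokine for neutrophils, was below background on every small intestine array and read 3.85, 0.19 and 0.01 in CT26, at least 58-fold higher and highest on replicate 1. *Ptgs2*, the inducible prostaglandin synthase COX-2, read -4.11, -3.51 and -3.39 against 6.21, 3.50 and 4.68 (353-fold higher, adjusted p = 6.82e-06). *Spp1*, which encodes osteopontin, and *Ankrd1*, a target of YAP signalling, were below background on every small intestine array and at least 975-fold and 521-fold higher in CT26. *Esm1*, a secreted proteoglycan, and *Rnd1*, a small GTPase that loosens the cytoskeleton, were 204-fold and 222-fold higher and measured on all 6 arrays. *Spp1* and *Ankrd1* belong to a list of 13 genes of fetal-like and regenerating epithelium. Of these 11 were tested, 7 overexpressed (63.6%) and 1 underexpressed (9.09%).

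Genes of proliferation were higher in CT26. All 20 genes of DNA replication were tested and overexpressed, with a median of 2.77, and so were 16 of 18 mitotic genes (median 3.20), with 0 underexpressed in either list. *Mcm2*, a subunit of the replicative helicase, read 0.93, 0.40 and 0.08 in small intestine and 3.51, 4.15 and 3.55 in CT26 (9.64-fold higher, adjusted p = 3.75e-05), and *Mcm5*, whose promoter is shown above, was 11.3-fold higher. *Cdk1*, the kinase of mitotic entry, read 0.67, -0.44 and -0.79 against 3.99, 3.60 and 3.17 (13.7-fold), *Plk1* 3.37, 2.24 and 1.83 against 5.69, 5.84 and 5.34 (8.86-fold) and *Cdc20*, an activator of the anaphase-promoting complex, was 9.74-fold higher. Of the 3 tested probes of *Cdk1* 2 were called. *Mki67*, the proliferation marker Ki-67, differed less, at 4.08, 3.16 and 2.54 against 5.52, 5.14 and 5.27 (4.14-fold, adjusted p = 0.0019). For *Mcm2*, *Cdk1*, *Plk1* and *Mki67* small intestine replicate 1 was the highest of its group, yet below every CT26 array.

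Inhibitors of the cell cycle encoded at 1 locus were undetected in CT26. *Cdkn2b*, which encodes the cyclin kinase inhibitor p15, read 5.47, 4.93 and 5.23 in small intestine and -6.79, -7.37 and -7.30 in CT26, where it was below background on every array and at least 1172-fold lower (adjusted p = 1.69e-08). Its neighbor *Cdkn2a*, which encodes p16 and p19ARF, was below background on every CT26 array and exceeded it on 1 of 3 small intestine arrays, and was therefore not tested. By the probe positions in the scanner files (NCBI37/mm9) the *Cdkn2a* probe lies at chr4:88920405-88920464 and that of *Cdkn2b* at chr4:88952276-88952335. The genes around the locus were picked by name and do not cover every gene of the region. *Mtap*, a methionine salvage enzyme, was the nearest of those picked on one side (probe at chr4:88826213-88826272). It was present in CT26 at 1.55, 2.38 and 1.18 and at least 29.4-fold higher than in small intestine, where it exceeded background on 2 of 3 arrays. *Focad*, further out on that side, was 6.0-fold higher in CT26. On the other side *Dmrta1* was below background on all 6 arrays and *Zfp352* was measured in CT26 at 1.64, 0.87 and 1.37. No DNA was measured on these arrays.

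**Figure D3:**
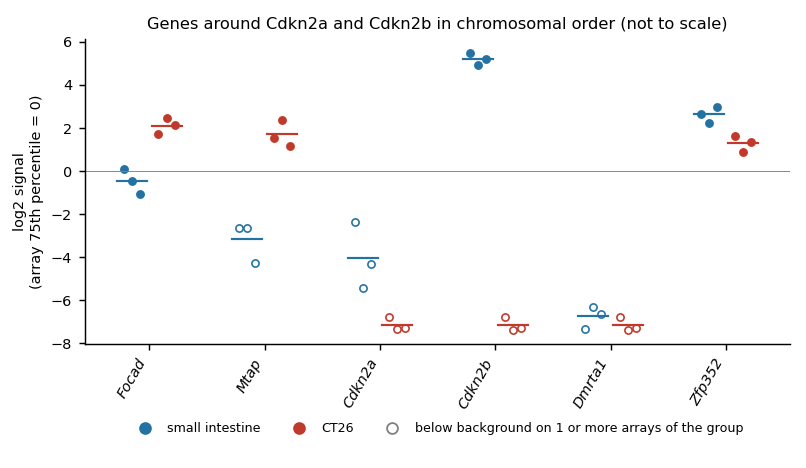
Log2 signal on each array for genes picked by name around *Cdkn2a* and *Cdkn2b* on chromosome 4. They are in the order of their probes and not to scale, with the 75th percentile of the array set to 0. Bars are group means and open points are groups in which at least 1 array was not well above background, as for *Cdkn2a* and *Cdkn2b* in CT26, while *Mtap* and *Focad* lie above the small intestine.

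Other regulators of the G1 phase changed in both directions. Of 20 listed G1 cyclins, kinases, inhibitors and genes of the p53 axis 18 were tested, 9 were overexpressed and 3 underexpressed. These are 50% and 16.7%, against 27.9% and 25.4% of all genes tested. *Ccnd1*, which encodes cyclin D1, read 3.43, 2.25 and 1.47 against 5.24, 5.36 and 5.12 (7.24-fold higher) and its kinase partner *Cdk4* was 8.85-fold higher. *Rb1*, the retinoblastoma gene, was 4.07-fold lower (adjusted p = 0.000206) and the inhibitor *Cdkn1c* at least 60.2-fold lower, while *Trp53*, which encodes p53, was 4.03-fold higher. *Myc*, the growth-promoting transcription factor, read -0.47, -0.93 and -1.60 in small intestine and 4.39, 2.48 and 3.31 in CT26 (21-fold higher, adjusted p = 9.92e-05), whereas its relatives *Mycn* and *Mycl* were below background in CT26 and at least 6.83-fold and 7.98-fold lower. On the list of these genes and of ribosome biogenesis 14 of 16 were overexpressed and only *Mycn* and *Mycl* were underexpressed. *Nop56* and *Ncl*, which act in the making of ribosomal RNA, were 23.5-fold and 8.64-fold higher.

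The ERK pathway relays growth signals to the nucleus and induces its own feedback inhibitors. Of 16 genes tested, 9 were overexpressed (56.2%), 1 was underexpressed (6.25%) and 6 were not called. Over all genes tested the shares were 27.9% and 25.4%. *Etv4*, a transcription factor induced by ERK, read -1.37, -1.52 and -0.59 in small intestine and 4.77, 5.41 and 5.35 in CT26 (80.9-fold higher, adjusted p = 9.6e-07), and *Fosl1*, a subunit of AP-1, exceeded background on 1 of 3 small intestine arrays and was at least 449-fold higher. The feedback inhibitors that were called went both ways. *Dusp4* was 15-fold and *Spred1* 10.1-fold higher, but *Spry1* was below background in CT26 and at least 33.2-fold lower.

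Serine and one-carbon metabolism, which supplies building blocks for nucleotides, was the metabolic list with the highest median, 4.92. Of 13 genes tested 11 were overexpressed. *Phgdh*, the first enzyme of serine synthesis, read -0.11, -0.23 and -0.77 in small intestine and 7.83, 7.39 and 7.50 in CT26 (247-fold higher, adjusted p = 1e-07). *Psat1* and *Psph*, the next enzymes of the pathway, were 111-fold and 34-fold higher. Of the enzymes that move serine carbon into folates, the mitochondrial *Shmt2* and *Mthfd2* were 40.9-fold and 57.5-fold higher, while the cytosolic *Shmt1* was not called, at 0.03, -0.73 and -1.03 against 0.14, 0.24 and 0.05 (adjusted p = 0.0729). Another 1 was underexpressed, and 0 were without small intestine replicate 2 or 3 or without CT26 replicate 1 or 3.

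**Figure D4:**
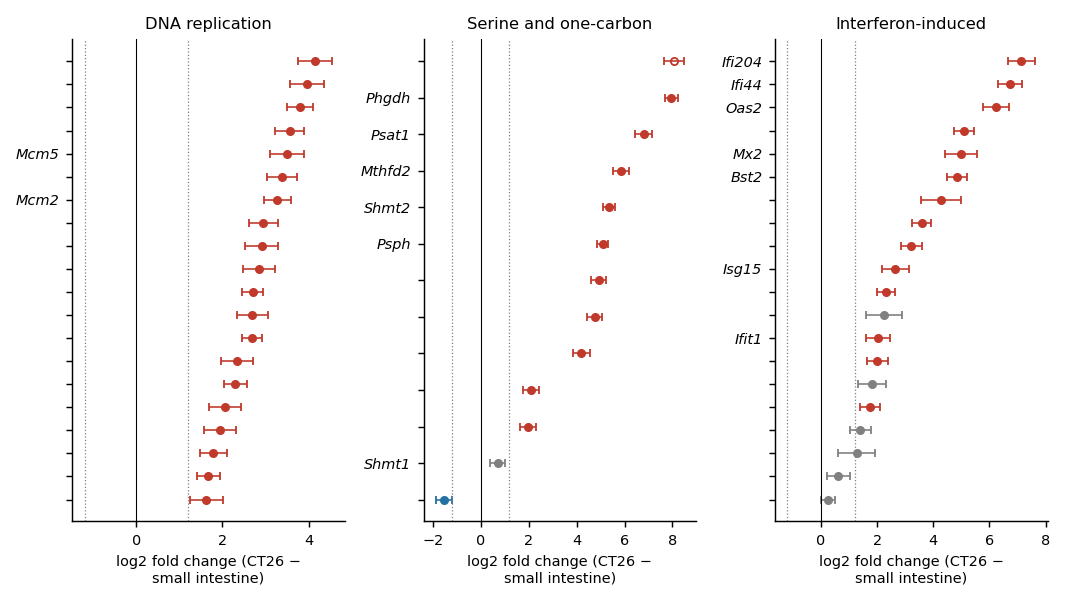
Log2 fold change of CT26 over small intestine for the tested genes of DNA replication, of serine and one-carbon metabolism and of the interferon response, with bars for the standard error. Red marks overexpressed, blue underexpressed and grey uncalled genes, open points have a group not well above background on all arrays, and dotted lines mark 1.2 in either direction. Genes are ordered by their fold change and named where the text describes them, and every gene of DNA replication lies to the right of 0.

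Few glycolytic genes were called. Of 20 genes tested 3 were overexpressed (15%), 4 underexpressed (20%) and 13 not called, with a median of 0.31. Over all genes tested the shares were 27.9% and 25.4%. Without small intestine replicate 3 the overexpressed genes were 6. *Gapdh*, the glyceraldehyde phosphate dehydrogenase, read 8.76, 9.21 and 9.67 in small intestine and 9.18, 9.10 and 9.08 in CT26 (log2 fold change -0.09 ± 0.29, SE), with the sign turned to 0.27 under quantile normalization and to 0.14 without small intestine replicate 3. *Aldoa*, the aldolase of most tissues, was at 0.09 ± 0.29, with the sign turned to -0.09, -0.06 and -0.39 in the authors' table, under quantile normalization and after centring on detected probes, and to -0.04 and -0.07 without small intestine replicate 1 or CT26 replicate 2. The aldolase of the brain, *Aldoc*, was 9.55-fold lower. The lactate dehydrogenase subunits also parted, with *Ldha* at -0.57 ± 0.28 and not called while *Ldhb* was below background in CT26 and at least 87.9-fold lower. *Slc2a1*, the widespread glucose transporter GLUT1, was 7.0-fold higher and *Slc2a6* 20.6-fold, whereas the intestinal *Slc2a2* and the fructose transporter *Slc2a5* were at least 253-fold and 861-fold lower. Of the 11 glucose transporters tested, 2 were overexpressed (18.2%) and 7 underexpressed (63.6%), and 5 of the 11 were below background on every CT26 array.

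Pathways of the enterocyte's own metabolism were lower. All 8 genes of fructose use and gluconeogenesis were underexpressed, 4 of them below background on every CT26 array, among them *Pck1* and *Fbp1*, which commit carbon to glucose (at least 636-fold and 626-fold lower). Of 14 genes of fatty acid oxidation and ketone synthesis 12 were underexpressed and 0 overexpressed (median -2.58). *Ehhadh*, an enzyme of fatty acid oxidation in peroxisomes, read 2.99, 3.33 and 3.75 against -6.85, -6.60 and -7.39 and was at least 324-fold lower. Of 20 genes of xenobiotic metabolism 17 were underexpressed and 0 overexpressed, and 8 of the 20 were below background on every CT26 array. The cytochrome P450 *Cyp4f14* and the carboxylesterase *Ces2a* were at least 10147-fold and 7367-fold lower. Of 16 genes of cholesterol synthesis 13 were not called, 2 were underexpressed (12.5%) and 1 was overexpressed (6.25%). *Sc5d*, an enzyme of a late step, was 3.20-fold lower. The 1 overexpressed gene, *Fdps*, lost its call under 4 of 6 omissions of an array, with the slide or the replicate number as a block (adjusted p = 0.0148 and 0.0238), in the authors' table, under quantile normalization and after centring. Without small intestine replicate 1 the overexpressed genes were 5. Of 11 tested genes of retinoid metabolism 6 were underexpressed (54.5%, against 25.4% of all genes) and 1 was overexpressed (9.09%, against 27.9%). Below background on every CT26 array were 4 of the 11. *Aldh1a1* and *Adh1*, which oxidize retinal and retinol, were 317-fold and 170.1-fold lower, and *Crabp2*, a carrier of retinoic acid, was 3.11-fold higher, a call lost after centring on detected probes (log2 fold change 1.16).

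**Figure D5:**
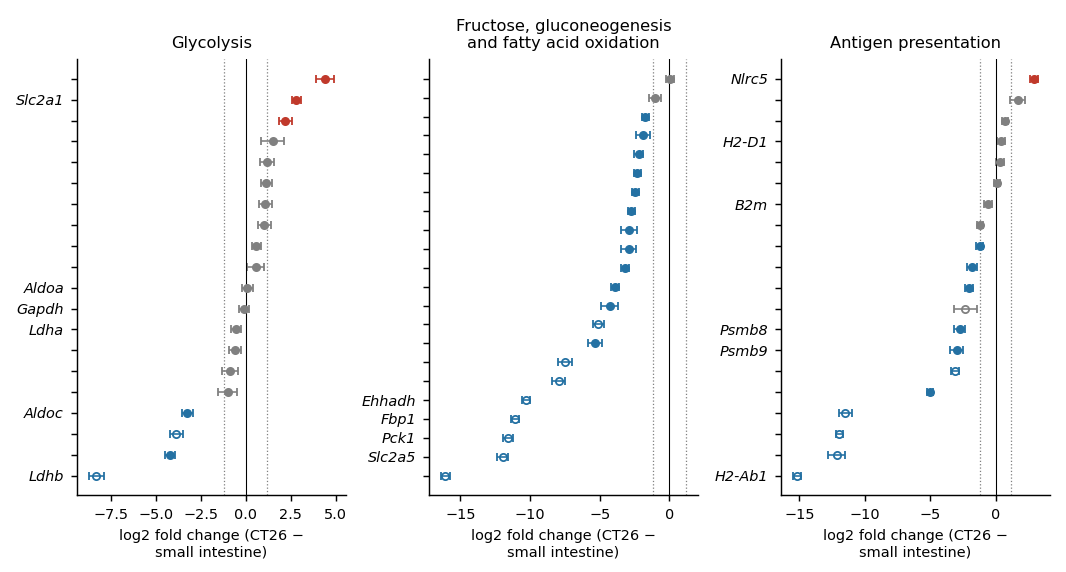
Log2 fold change of CT26 over small intestine for the tested genes of glycolysis, of fructose use, gluconeogenesis and fatty acid oxidation, and of class I and class II antigen presentation, with bars for the standard error. Order, names, colors, open points and dotted lines are as for the plot of replication, serine and interferon genes; most glycolytic and class I genes lie near 0 and most class II genes lie far to the left.

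Interferon-induced genes were mostly higher in CT26. Of 20 tested 14 were overexpressed (70%, against 27.9% of all genes), 0 underexpressed and 6 not called, with a median of 2.48. *Oas2*, a sensor of double-stranded RNA, read -1.03, 0.15 and 0.73 in small intestine and 6.69, 5.79 and 6.06 in CT26 (75.1-fold higher, adjusted p = 8.03e-06). *Ifi44* was 106-fold higher, *Mx2*, an antiviral GTPase, 31.6-fold and *Bst2*, which tethers virus particles, 28.5-fold. *Isg15*, the ubiquitin-like modifier whose promoter opens the sequences above, read 4.17, 5.52 and 6.02 against 8.26, 7.96 and 7.42 (6.25-fold, adjusted p = 0.00139), lowest on small intestine replicate 1 and with its call lost when all 14 arrays shared 1 estimate of the spread (adjusted p = 0.0297). *Ifit1*, another induced gene whose promoter is shown, was 4.11-fold higher (adjusted p = 0.00335). Its call was lost in that fit, after centring on detected probes and without CT26 replicate 1 or 2, with adjusted p between 0.0104 and 0.0405. *Ifi202b* was below background on every small intestine array and read 6.28, 5.35 and 5.40 in CT26, at least 1163-fold higher, and *Ifi204* of the same family was 141-fold higher. This family is known to vary in sequence and expression between inbred strains, and the strains of the groups differed.

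Antigen presentation differed between its classes. Of 12 genes of class I presentation 7 were not called, 4 were underexpressed (33.3%) and 1 was overexpressed (8.33%). Over all genes tested 25.4% were underexpressed, near the share of this list, and 27.9% were overexpressed. *B2m*, the invariant chain of class I, read 7.89, 8.32 and 8.56 in small intestine and 8.10, 7.64 and 7.36 in CT26 and was not called (log2 fold change -0.55 ± 0.30, SE), and *H2-D1*, a heavy chain, was not called either (0.40 ± 0.30, with the sign turned to -0.08 by centring on detected probes). The immunoproteasome subunits *Psmb8* and *Psmb9* were 6.75-fold and 7.83-fold lower. *Nlrc5*, the activator of class I genes, was 7.64-fold higher (adjusted p = 8.5e-05). Of 8 class II genes 7 were underexpressed and 0 overexpressed, and 4 of the 8 were below background on every CT26 array. *H2-Ab1*, a class II chain, was at 8.56, 8.0 and 7.70 against -6.80, -7.20 and -7.28 and at least 8626-fold lower. The heavy chains and class II genes are polymorphic between BALB/c and C57BL/6J, and the part of probe mismatch was not tested.

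Markers of the other cells of the gut wall were mostly lower in CT26. In a tissue, fewer cells of a type and less RNA per cell cannot be told apart. Of 12 smooth muscle genes 11 were underexpressed, of 12 tested myeloid genes 11, of 12 genes of T cells and intraepithelial lymphocytes 10, of 9 tested endothelial genes 7 and of 11 tested neural and glial genes 8. Over all genes tested the share was 25.4%. In the same order, 5, 4, 3, 5 and 5 genes of these lists were below background on every CT26 array. These passed the filter only through the small intestine. Among them the calponin *Cnn1* was at least 1629-fold, the T cell receptor chain *Cd3g* at least 58.8-fold, the complement chain *C1qa* at least 30.6-fold, the endothelial claudin *Cldn5* at least 22.5-fold and the neuropeptide *Vip* at least 21.8-fold lower. Other markers stayed well above background on every CT26 array, among them the smooth muscle gene *Actg2* (395-fold lower), the myeloid receptor *Csf1r* (3.47-fold) and the T cell receptor chain *Cd3e* (3.63-fold). *Jchain*, the joining chain of mucosal antibodies, was at least 1026-fold lower. Smooth muscle varied between the tissue samples too, with *Acta2* (smooth muscle actin) at 5.72, 6.57 and 4.74 in the 3 small intestine replicates and *Myl9* (myosin light chain) at 7.15, 8.03 and 6.34. The median over the smooth muscle list ran from 3.42 to 4.94 on the small intestine arrays and from -4.96 to -4.28 on those of CT26, and over the T cell list from 0.99 to 2.14 and from -4.76 to -4.47. The part of these cells in the other differences was not tested. Of 7 tested B cell genes 3 were overexpressed and 3 underexpressed (42.9% each, against 27.9% and 25.4% of all genes). Without CT26 replicate 3 only 1 was overexpressed. Of 9 listed mast cell genes 4 were tested and 3 were underexpressed, among them *Kit*, a receptor also used by the pacemaker cells of the gut (at least 35.5-fold lower).

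Defence genes of the mucosa were mostly lower too. Of 15 tested 11 were underexpressed, 8 of them below background on every CT26 array. The 1 overexpressed gene was *Saa3*, an acute phase protein, at least 8.55-fold higher, and its call was lost without CT26 replicate 1 or 3. *Reg3b* and *Reg3g*, bactericidal lectins of the epithelium, read 8.59, 9.34 and 7.66 and 8.50, 8.82 and 6.92 in small intestine and were at least 11683-fold and 8552-fold lower. *Pigr*, the receptor that carries antibodies across the epithelium, differed less and stayed well above background in CT26, at 5.75, 5.06 and 5.67 against 7.83, 8.47 and 8.94 (7.57-fold lower, adjusted p = 0.000134).

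Several genes known from the testis or other organs were among those most raised in CT26. *Rhox5*, a homeobox gene of the X chromosome known for the testis and placenta, had the largest limit of all overexpressed genes. It read -6.42, -6.33 and -6.02 in small intestine, below background throughout, and 8.06, 8.20 and 8.10 in CT26, at least 6331-fold higher (adjusted p = 9.34e-09). *Rpl39l*, a ribosomal protein of the testis, was at least 2368-fold higher, *Syt10*, a synaptotagmin of secretory vesicles, at least 1103-fold, *Csn3*, the milk protein kappa-casein, at least 777-fold and *Wnt10a*, a Wnt ligand, at least 482-fold. Of the 2 tested probes of *Csn3* only 1 was called. *Csprs* had the largest fold change of the overexpressed genes measured on all 6 arrays (762-fold higher, at -3.76, -3.41 and -3.36 against 6.36, 5.92 and 5.92), and it belongs to a repeated gene cluster, so that its probe may read several copies. Of 17 listed germline genes, however, 3 were tested and 9 were below background on all 6 arrays, and the 1 called was *Sycp1*, of the synaptonemal complex, at least 1.92-fold higher. Its call was lost in the authors' table, after normexp background correction and with a floor on low signals, where the log2 fold change was 1.14, 0.58 and 0.94 against 3.06. Of 18 listed oncofetal and imprinted genes 12 were tested, 3 were overexpressed (25%) and 3 underexpressed (25%). These shares lie near the 27.9% and 25.4% of all genes tested. *Igf2bp1*, an oncofetal RNA-binding protein, was below background on every small intestine array and at least 215-fold higher, and the chromatin proteins *Hmga1* and *Hmga2* were 9.15-fold and 94.4-fold higher.

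Hox genes, which mark position along the body axis, changed in both directions. Of 39 listed 21 were tested, 10 were overexpressed (47.6%), 4 underexpressed (19%) and 10 were below background on all 6 arrays. Over all genes tested the shares were 27.9% and 25.4%. *Hoxc6* read 0.47, 0.56 and -1.26 in small intestine and 3.26, 3.65 and 3.43 in CT26 (11.5-fold higher, adjusted p = 0.00027). *Hoxa10* and *Hoxd8* were below background on every small intestine array and at least 9.40-fold and 12.1-fold higher in CT26. *Hoxb2* and *Hoxb7* ran the other way and were below background on every CT26 array, at least 7.82-fold and 16.7-fold lower.

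DNA methylation was the subject of the study, and its enzymes were listed with those of the Polycomb complexes. Of 20 tested 8 were overexpressed (40%, against 27.9% of all genes), 2 underexpressed (10%, against 25.4%) and 10 not called. After centring on detected probes the overexpressed genes were 4. *Dnmt1*, the maintenance methyltransferase, read -0.30, -0.94 and -1.06 in small intestine and 0.59, 1.60 and 1.18 in CT26 (3.71-fold higher, adjusted p = 0.00146), and *Uhrf1*, which brings it to replicating DNA, was 6.50-fold higher. *Dnmt3a*, a de novo methyltransferase, was 2.78-fold lower. *Bmi1*, a subunit of Polycomb complex 1, was 9.28-fold higher, and *Ezh1*, the catalytic subunit of complex 2 in resting cells, was 2.61-fold lower (adjusted p = 0.00131).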

How the data were processed

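Total RNA of each sample was hybridised to a one-color Agilent mouse 8x60K array, and the 6 arrays of CT26 and small intestine were grouped by their labels. The deposited scanner files hold signal intensities that Feature Extraction 10.7.3.1 had corrected for local background and spatial trend, with probe positions on NCBI37/mm9 per the file headers. The authors also deposited a log2 table normalized to one distribution on every array, by a method not given in the sources used here, which served as an alternative. Here log2 intensity minus the 75th percentile of each array was fitted with limma 3.58.1 in R 4.3.3, with moderated statistics on 3 against 3 arrays and Benjamini-Hochberg adjustment over 30149 probes. The thresholds of 1.2 and 0.01 are those of the study's methods. Spots flagged as outliers by the software did not enter, nor did control spots. Where a group was not well above background on all of its arrays, the fold is the mean of the brighter group over the lowest detected level of each dim array, or over the probe itself where that was higher.

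The fit was tested on simulated data. Genes were named as the 10 largest called changes in each direction on all 6 arrays, the 10 largest limits, and members of 48 lists chosen by role. The part, its lists and its named genes were chosen with earlier results of these data known. The alternatives covered the source of the values, background correction, normalization, filter, arrays in the fit, slide, replicate number, variance trend, thresholds and the rule for genes. An exact permutation of 3 against 3 arrays cannot give a p under 0.1, so that single genes were tested only through limma. The precision is limited by the number of arrays. Some genes of the lists are counted but not reported here by name.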

Additional observations from a re-analysis of the deposited data

How the results depend on the processing

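The counts of overexpressed and underexpressed genes stayed within 1.5 times of 4461 and 4064 under all alternatives except 1. With only probes well above background on all 6 arrays, which leaves out the genes that have only a limit, 1865 genes were underexpressed. Overexpressed genes numbered 3844 to 4384 and underexpressed genes 3710 to 4056 when 1 array was left out. The share of calls that were overexpressed, 52.33%, was 51.23% after normexp background correction, 38.71% after centring on detected probes, 48.6% with all probes tested and 66.44% with probes well above background on all 6 arrays, and 50.89% to 51.98% when 1 array was left out. The authors' table gave 3737 and 3383 genes, of which 3698 and 3241 were also called in the same direction here. Over all genes the median log2 fold change was 0.19, and it was -0.29 after centring and 0.07 after normexp. Replicates 1 and 3 of both groups lay on slide 1 and replicate 2 of both on slide 2, which is therefore 1 array against 1. Of 8519 called genes with values within both slides 7897 passed 1.2 in the same direction within both, and 65 of the named genes moved by more than the spread between replicates within slide 2. The replicate numbers did not pair the samples beyond the shared slides, since deviations of same-numbered arrays correlated at -0.035, 0.046 and 0.0076 and no array correlated best with its own number. The replicate block gave 4338 overexpressed and 4004 underexpressed genes, and of the named genes only *Fdps* lost its call under it (adjusted p = 0.0238).

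Among named genes, sign changes were seen for 3 uncalled genes. *Gapdh* (-0.09) was at 0.27 under quantile normalization, at 0.62 where any probe of a gene counted and between -0.32 and 0.14 when 1 array was left out. *Aldoa* (0.09) was at -0.087 in the authors' table, -0.062 under quantile normalization, -0.39 after centring and -0.15 within slide 1, and between -0.066 and 0.297 when 1 array was left out. After centring on detected probes *H2-D1* was at -0.080. The cause of these changes was not tested. Signals below background carry only a limit, which covers 3075 of the called genes.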

Other observations

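Values of single replicates differed widely for some genes not described above. *Il6*, a cytokine of inflammation, read 1.83, -3.58 and -2.31 on the 3 CT26 arrays, and *Ereg*, a ligand of the epidermal growth factor receptor, read 5.60, 2.89 and 4.19, both highest on replicate 1. On the same arrays *Ccn2*, a matrix protein induced by YAP and TGF-beta, read 2.41, 4.61 and 4.16, lowest on replicate 1. In small intestine *Rbp2*, the retinol-binding protein of the enterocyte, read 2.43, 4.81 and 5.53, and *Gip*, a hormone of the upper small intestine, read 2.42, 4.59 and 4.62, both lowest on replicate 1.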
